A study of Homo sapiens with 2 samples.

Results

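Solute carriers of the SLC families were examined in 293T cells given Y27632, a small-molecule kinase inhibitor. Members were all genes whose current symbol has the form SLC, a number, A and a number, such as SLC7A5, leaving out SLC2A1 and SLC2A3, with a value on both arrays of the deposited table. This gave 208 carriers from 47 families, of 259 that had a probe and of 10469 named genes with a value on both arrays. Each of the 2 dual-colour arrays set untreated 293T cells, given a time of 0 h and labelled with Cy5, against 293T cells given 10 µM Y27632 and labelled with Cy3, for 3 h on the first array and 6 h on the second. The titles of both samples hold the word control, while the source label of the treated channel names Y27632. The source labels were followed here. 293T is an established human embryonic kidney line, here grown in serum-containing medium, so all values come from 1 line in culture. The control was untreated, so the inhibitor cannot be told apart from its vehicle, handling or the time in culture.

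SLC proteins move solutes across membranes without splitting ATP themselves. Facilitative carriers let a solute run down its gradient, coupled carriers use the sodium, proton or chloride gradient, and exchangers trade one solute for another. They supply cells with sugars, amino acids, vitamins and metals, set cell volume and pH, load secretory vesicles, and link the mitochondrial matrix to the cytosol. In the kidney, carriers of these families take back filtered glucose, amino acids and ions and secrete organic anions and cations. The design asks which transcripts differ from untreated cells at each time.

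The values were log ratios of the channels, read here as base 2, with no statement of which channel was the numerator. Whether a positive value means more or less transcript in Y27632 cells is therefore not known. Signs are given as in the deposited table, and none is called a rise or a fall. There was 1 array per time and no dye swap, so no value has a replicate, no test across samples was possible and no p-value is given. No spot intensities were used here, so neither the level of a carrier nor its presence in 293T cells is shown by these values. The number of arrays limits the precision. The only error available is the spread between probes of one gene, which gave a pooled SD of 0.31 for the 3 h array and 0.33 for the 6 h array across the 572 named genes with several probes valued on both. For the 13 carriers with several such probes it was 0.28 and 0.34. The SD between all named genes was 0.35 on each array, so probes of one gene differed nearly as much as genes did. The probe SD holds no error between arrays or cultures. The other 195 carriers rested on 1 probe each.

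As a group the carriers lay slightly on the negative side. Their median log2 ratio was −0.09 at 3 h and −0.105 at 6 h, against 0.02 and 0.01 over all named genes. At 3 h 128 of the 208 carriers (61.5%) were below 0, where 47.3% of all named genes were. At 6 h 121 carriers (58.2%) were below 0, against 47.4%. The middle of the carriers ran from a lower quartile of −0.24 to an upper quartile of 0.14 at 3 h and from −0.27 to 0.17 at 6 h, so carriers lay on both sides of 0. Whether both arrays used the same control RNA is not given in the sources used here, and any error in a shared control would enter both medians. In such bulk RNA, a different share of cells holding a transcript and a different amount of it per cell cannot be told apart.

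**Figure D1:**
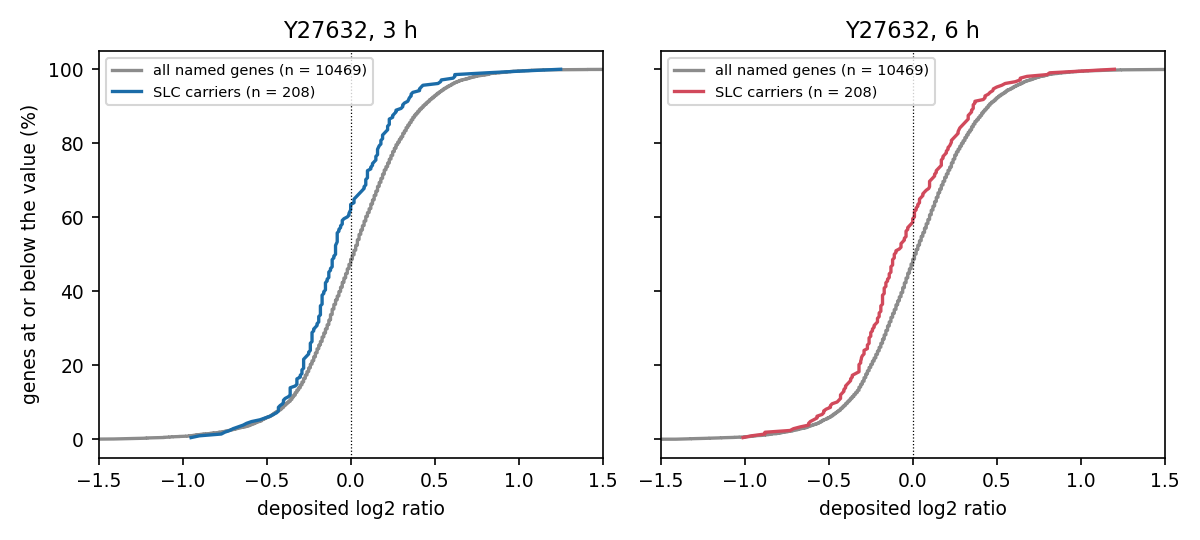
Cumulative share of genes (percent, vertical axis) at or below each deposited log2 ratio (horizontal axis) for the 208 SLC carriers (coloured) and all 10469 named genes (grey), at 3 h and 6 h of Y27632. The carrier curve lies to the left of the grey curve around 0, where it reaches medians of −0.09 and −0.105 against 0.02 and 0.01, and the curves meet at the extremes.

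The displacement was not one of large values. Carriers were counted as past the size where the log2 ratio lay 1 unit or more from 0, a 2-fold difference in base 2. At 3 h 2 carriers were at 1 or more, SLC9A9 and SLC2A5, a share of 0.962% against 0.525% of all named genes, and 0 were at −1 or less, against 0.831%. At 6 h 2 carriers were at 1 or more, SLC17A2 and SLC15A3, again 0.962%, against 0.564%, and 1 carrier, SLC16A11, was at −1 or less, against 0.678%. With a size of 1.5-fold, 6 carriers were positive at 3 h (2.88%, against 4.56% of all named genes) and 10 negative (4.81% against 4.08%). At 6 h 8 were positive (3.85% against 5.28%) and 11 negative (5.29% against 4.01%). These shares lie near those of all named genes.

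Carriers whose 2 values shared a sign were put in order of whichever value lay closer to 0. The lowest was SLC2A10, which encodes GLUT10, a facilitative sugar transporter of inner membranes. It had −0.90 at 3 h and −0.88 at 6 h, a 1.87-fold and a 1.84-fold difference. Next came SLC16A5, a member of the monocarboxylate transporter family, at −0.72 and −0.62. The highest was SLC5A12, a sodium-coupled lactate carrier of the kidney and gut, at 0.81 and 0.64. SLC12A7, the potassium-chloride cotransporter KCC4, had 0.62 and 0.80. SLC2A5, which encodes the fructose transporter GLUT5, had 1.02 and 0.61. SLC9A9, an endosomal sodium-proton exchanger, had the highest value of any carrier at 3 h, 1.25, above 99.8% of named genes, and 0.46 at 6 h. Each of these 6 genes had 1 probe. The probe SD of 0.31 to 0.33 is to be set beside each value, and so is the SD of 0.35 between all named genes.

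**Figure D2:**
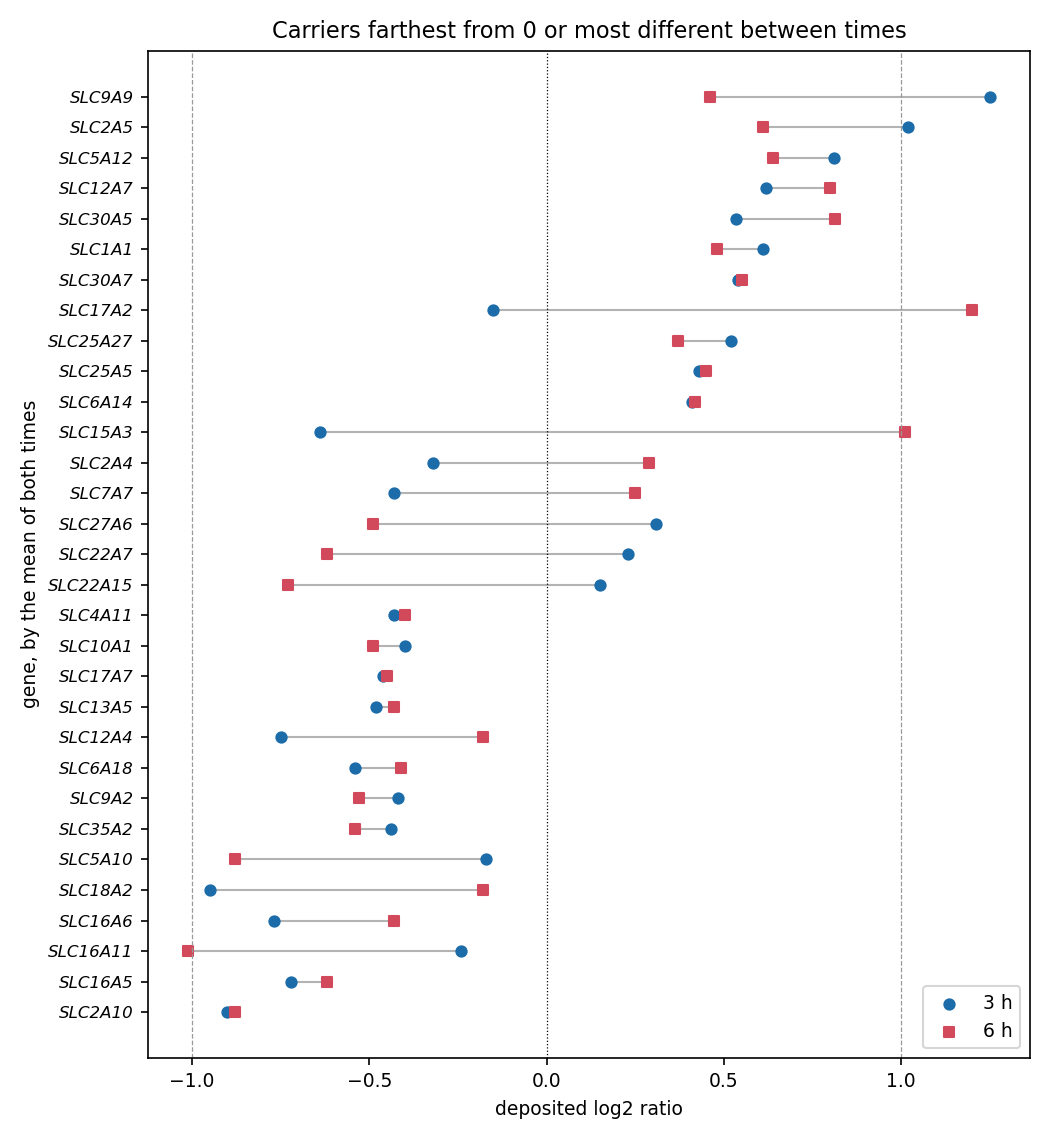
Deposited log2 ratios (horizontal axis) at 3 h (circles) and 6 h (squares) for the 31 carriers (vertical axis) that were highest or lowest with one sign on both arrays, past 1 unit on either array, or most different between times, joined by a line per gene. Dashed lines mark −1 and 1. SLC2A10 at the bottom keeps nearly one value, −0.90 and −0.88, while SLC15A3 moves from −0.64 to 1.01 and SLC17A2 from −0.15 to 1.20.

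The stretch upstream of the start is shown for 3 carriers, the lowest and the highest of that ranking and SLC30A5, the carrier with the highest mean value resting on more than 1 probe. The sequences are the 250 bases before the annotated start in RefSeq (GRCh38.p14), written 5′ to 3′ on the gene's strand. They lie at chr20:46709399-46709648 on the plus strand for SLC2A10, chr11:26722061-26722310 on the minus strand for SLC5A12 and chr5:69093764-69094013 on the plus strand for SLC30A5. Capitals mark a match to the core of the metal response element, which binds the zinc sensor MTF1, searched as TGCACNC or TGCGCNC on both strands.
SLC2A10: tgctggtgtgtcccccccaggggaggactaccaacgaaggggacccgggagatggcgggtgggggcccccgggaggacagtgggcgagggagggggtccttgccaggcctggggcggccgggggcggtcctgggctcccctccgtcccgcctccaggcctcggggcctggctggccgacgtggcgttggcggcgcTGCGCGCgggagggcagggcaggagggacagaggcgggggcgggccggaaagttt
SLC5A12: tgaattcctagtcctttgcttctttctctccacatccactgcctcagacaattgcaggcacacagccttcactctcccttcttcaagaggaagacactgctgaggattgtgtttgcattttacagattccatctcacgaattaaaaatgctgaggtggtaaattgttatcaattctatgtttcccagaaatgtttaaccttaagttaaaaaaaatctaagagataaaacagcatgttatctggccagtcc
SLC30A5: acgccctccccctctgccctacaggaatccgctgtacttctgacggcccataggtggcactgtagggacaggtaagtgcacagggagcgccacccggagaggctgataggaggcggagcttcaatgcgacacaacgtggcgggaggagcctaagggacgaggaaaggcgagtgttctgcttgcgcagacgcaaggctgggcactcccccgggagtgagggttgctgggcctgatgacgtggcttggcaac
The SLC2A10 stretch is 76.8% G and C, that of SLC30A5 63.2% and that of SLC5A12 39.2%. The SLC2A10 stretch held 1 match and the others held 0, which says only that those letters are not in these windows.

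Over all 172 members with a RefSeq window, 72 of 251 windows (28.7%) held the metal response core, against 24.8% of all 35116 windows of that length and 30.1% of the 12345 windows of named genes. Of the zinc carriers SLC30 and SLC39, 9 of 24 windows did (37.5%). Those 24 windows came from 17 genes, so a gene can count more than once. The cAMP response element TGACGTCA, searched on both strands, was in 1.59% of the carriers' windows, against 1.65% of all and 2.32% of those of named genes. The amino acid response core TGATGNAA, bound by ATF4 with a partner, was in 3.19%, against 3.14% of all and 2.0% of those of named genes. The CArG box, the site of SRF, was in 1 of the carriers' windows (0.398%), against 1.16% of all and 1.21% of those of named genes. A match is a description of letters and not of binding. Carriers whose windows were below the named genes' median of 63.6% G and C (76 genes) had a median of −0.08 at 3 h and one of −0.075 at 6 h, and those at or above it −0.105 and −0.12 over 96 genes. The carriers' medians were below 0 on both sides of that division. The part that base composition has in the displacement was not tested. Over all named genes the corresponding medians lay between 0.02 and 0.03.

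Carriers were placed in 11 substrate classes by family number, and 6 members of families with no assigned class were kept apart. Among classes with 4 or more members, carriers of organic ions had the lowest median at 3 h and neurotransmitter and vesicular carriers the lowest at 6 h. Nucleotide sugar carriers had the highest at both times. With 1 array per time these are descriptions, with no test of a difference between classes. Counts below 0 in each class are to be read beside the shares of all carriers, 61.5% at 3 h and 58.2% at 6 h. Over all named genes those shares were 47.3% and 47.4%.

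**Figure D3:**
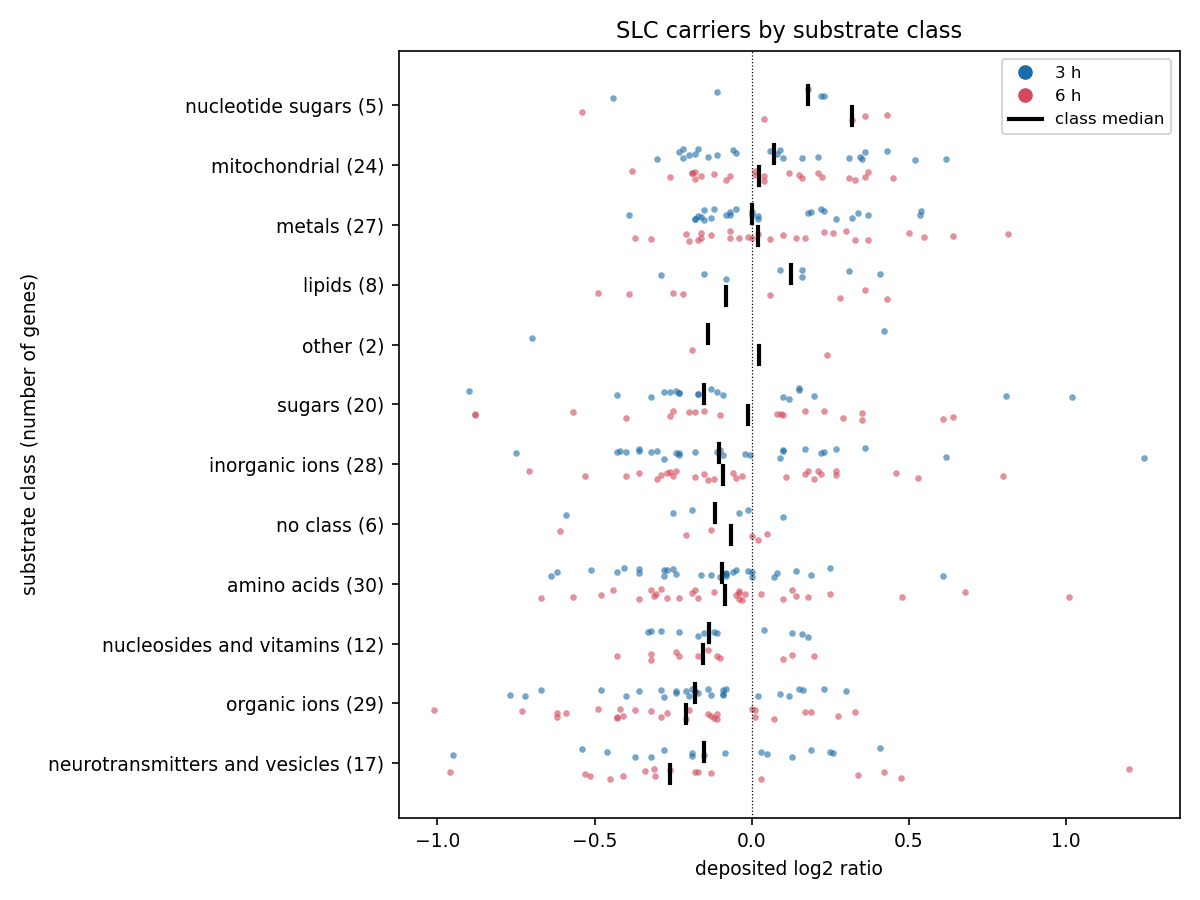
Deposited log2 ratios (horizontal axis) of the 208 carriers by substrate class (vertical axis, number of genes in brackets) at 3 h and 6 h, 1 point per gene, with black bars at the class medians. Organic ion carriers lie mostly left of 0, with medians of −0.18 and −0.21, and mitochondrial carriers lie around 0, with medians of 0.07 and 0.025, but every class with 4 or more members spans both signs.

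Carriers of organic ions, which include monocarboxylate, bile acid, citrate and drug transporters, lay mostly on the negative side. At 3 h 22 of 29 (75.9%) were below 0 and at 6 h 21 of 29 (72.4%), against 61.5% and 58.2% of all carriers. Values ran from −0.77 to 0.30 and from −1.01 to 0.33. Within the class, the monocarboxylate family SLC16 moves lactate, pyruvate, ketone bodies and aromatic amino acids. Of its members 9 of 10 (90%) were below 0 at 3 h and 7 of 10 (70%) at 6 h. Its medians were −0.185 and −0.27. SLC16A6, a carrier of ketone bodies, had −0.77 and −0.43. SLC16A11 had −0.24 at 3 h and −1.01 at 6 h, the lowest carrier value at that time. The lactate carriers of dividing and glycolytic cells lay near 0, with SLC16A1 (MCT1) at 0.12 and 0.07 and SLC16A3 (MCT4) at −0.18 and −0.13.

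In the same class, SLC13A5, the citrate carrier of the plasma membrane, had −0.48 and −0.43. SLC10A1, the bile acid carrier of liver cells, had −0.40 and −0.49. The highest of the class by mean was SLC13A3, a dicarboxylate carrier of the proximal tubule, at 0.17 and 0.28 over 2 probes, with an SD between probes of 0.19 and 0.09. In the SLC22 family of organic cation and anion carriers, SLC22A7 had 0.23 and −0.62 and SLC22A15 had 0.15 and −0.73, values on opposite sides of 0. The medians of the 11 SLC22 members were −0.09 and −0.21.

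The class of neurotransmitter and vesicular carriers takes in the whole SLC6, SLC17 and SLC18 families, with their amino acid, taurine, creatine and phosphate carriers. It had its median at −0.15 for 3 h and at −0.26 for 6 h. Below 0 were 10 and 12 of 17 (58.8% and 70.6%), against 61.5% and 58.2% of all carriers. SLC6A4, the serotonin transporter, had −0.37 and −0.96. SLC6A3, the dopamine transporter, had −0.02 and −0.15 at 3 h in its 2 probes and −0.39 and −0.64 at 6 h. SLC18A2, which loads monoamines into vesicles, had −0.95 at 3 h, the lowest carrier value at that time, and −0.18 at 6 h. SLC17A7, which loads glutamate into synaptic vesicles, had −0.46 and −0.45. These genes are known from neurons, and the arrays do not show whether 293T cells carry their transcripts. SLC17A2 was the highest of the class by mean. SLC6A18, an amino acid carrier of the kidney, had −0.54 and −0.41. SLC6A14, a broad amino acid carrier, lay on the other side at 0.41 and 0.42.

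Within the SLC6 family, the carriers of taurine and creatine, osmolytes and energy stores of many cells, had several probes and lay below 0 in each. SLC6A6, the taurine transporter, had probe values of −0.08 and −0.30 on the 3 h array and −0.25 and −0.27 on the 6 h array. SLC6A8, the creatine transporter, had 3 probes, at −0.07, −0.22 and −0.28 on the 3 h array and at −0.17, −0.36 and −0.39 on the 6 h array. All these probe values were within 1 probe SD of 0 or just beyond it.

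Amino acid carriers had a median of −0.095 at 3 h and one of −0.085 at 6 h. Below 0 were 22 and 21 of 30 (73.3% and 70%), against 61.5% and 58.2% of all carriers. Heteromeric exchangers pair a light subunit, from among the SLC7 members, with a heavy subunit such as SLC3A2. Over the whole SLC7 family, paired or not, 9 of 10 members (90%) were below 0 at 3 h and 7 of 10 (70%) at 6 h. The family medians were −0.245 and −0.18. SLC7A5 (LAT1), which brings in leucine and other large neutral amino acids, had probe values of −0.61 and −0.20 on the 3 h array and −0.33 and −0.28 on the 6 h array. SLC3A2, its heavy subunit, had −0.06 and −0.18. SLC7A11, the cystine-glutamate exchanger, had −0.16 and −0.04, and SLC7A1, the cationic amino acid transporter, had −0.27 and −0.19. The lowest of the class by mean was SLC7A10, a carrier of small neutral amino acids, at −0.36 and −0.67.

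Other amino acid carriers were on both sides of 0. SLC1A5 (ASCT2), a glutamine and neutral amino acid exchanger, had −0.28 and −0.36. SLC1A1, a neuronal and epithelial glutamate transporter, was the highest of the class by mean at 0.61 and 0.48. SLC38A2 (SNAT2), a sodium-coupled carrier of neutral amino acids known to respond to amino acid shortage, had 0.25 and 0.68. SLC15A3, a histidine and peptide carrier of lysosomes, went from −0.64 at 3 h to 1.01 at 6 h.

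Sugar carriers, which here take in the sodium-coupled SLC5 family with its lactate, iodide and vitamin carriers, had a median of −0.15 at 3 h and one of −0.01 at 6 h. At 3 h 13 of 20 (65%) were below 0 and at 6 h 10 of 20 (50%), against 61.5% and 58.2% of all carriers. The class held SLC2A10, below 0 at both times, and SLC2A5 and SLC5A12, above 0 at both. SLC2A4, the insulin-responsive glucose transporter GLUT4, had −0.32 at 3 h and 0.29 at 6 h. SLC5A10, a mannose and fructose carrier of the kidney, had −0.17 and −0.88. SLC37A2, a sugar phosphate exchanger, had probes on opposite sides of 0 at both times, 0.18 and −0.44 at 3 h and 0.37 and −0.18 at 6 h.

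Carriers of inorganic ions had medians of −0.105 and −0.09. Below 0 were 18 and 17 of 28 (64.3% and 60.7%), near the 61.5% and 58.2% of all carriers. Cation-chloride cotransporters of the SLC12 family set cell volume and chloride. SLC12A7 (KCC4) was the highest of its family, while SLC12A4 (KCC1) had −0.75 at 3 h and −0.18 at 6 h. SLC12A2 (NKCC1), the widely expressed inward carrier, had −0.10 and −0.25. SLC12A1 (NKCC2), the loop diuretic target of the kidney, was the lowest of the class by mean at −0.30 and −0.71. Of the acid-base carriers, SLC9A2, an epithelial sodium-proton exchanger, had −0.42 and −0.53, SLC4A2, an anion exchanger, had −0.18 and 0.27, and SLC4A11 of the bicarbonate family had −0.43 and −0.40. The phosphate carrier SLC20A1 had 0.17 and 0.22.

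Metal carriers had a median of 0 at 3 h and of 0.02 at 6 h, close to the medians of all named genes. Below 0 were 13 and 12 of 27 (48.1% and 44.4%), against 47.3% and 47.4% of named genes. The SLC30 family moves zinc out of the cytosol, and the SLC39 family moves it in. SLC30A5 and SLC30A7 both load zinc into the secretory pathway. SLC30A5 had probe values of 0.39 and 0.68 on the 3 h array and 0.67 and 0.96 on the 6 h array, a mean of 0.54 ± 0.21 (SD, n = 2 probes) and 0.82 ± 0.21 (SD, n = 2 probes). SLC30A7, with 1 probe, had 0.54 and 0.55. SLC30A1, the zinc exporter of the plasma membrane and a known target of MTF1, had 0.19 and −0.01. Medians of the 7 SLC30 members were 0.19 and 0.26, with 3 of the 7 below 0 at each time. Medians of the 12 SLC39 members were 0.01 and 0.08, with 4 below 0 at 3 h and 5 at 6 h. SLC39A14, which also carries iron and manganese, was the lowest of the class by mean at −0.18 and −0.37, and SLC11A2 (DMT1), the importer of ferrous iron, had −0.12 and −0.07.

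Mitochondrial carriers of the SLC25 family had medians of 0.07 and 0.025 and lay near all named genes. Below 0 were 11 and 10 of 24 (45.8% and 41.7%), against 47.3% and 47.4% of named genes. The ADP/ATP translocases SLC25A4, SLC25A5 and SLC25A6, which export ATP from the matrix, were all above 0. SLC25A4 had 0.62 and 0.33, SLC25A5 0.43 and 0.45, and SLC25A6 0.35 and 0.36. They are close paralogs, and their probes may not tell them apart. SLC25A3, which imports the phosphate used for ATP synthesis, had −0.14 and −0.12. SLC25A27, an uncoupling protein of the family, had 0.52 and 0.37, and SLC25A1, the citrate carrier, was the lowest by mean at −0.23 and −0.38. SLC25A16 had probes at −0.02 and 0.71 at 3 h and at −0.22 and 0.67 at 6 h, a spread wider than any of these values.

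Nucleotide sugar carriers, which feed glycosylation in the Golgi, had medians of 0.18 and 0.32 over 5 genes. SLC35A5 was the highest by mean at 0.18 and 0.43. SLC35A2, the carrier of UDP-galactose, lay apart from the other members at −0.44 and −0.54. The 12 carriers of nucleosides and vitamins had medians of −0.135 and −0.155, with values from −0.33 to 0.18 at 3 h and from −0.43 to 0.20 at 6 h. SLC19A1, the reduced folate carrier, had −0.33 and −0.32, SLC29A1, an equilibrative nucleoside transporter, had −0.11 and −0.24, and SLC52A2, a riboflavin carrier, had 0.16 and 0.10. No gene of this class was past 1.5-fold at either time, nor was any nucleotide sugar or lipid carrier. Of all named genes 4.56% were positive and 4.08% negative at that size at 3 h, and 5.28% and 4.01% at 6 h. In classes this small a count of 0 lies near those shares.

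The 8 lipid-related carriers had a median of 0.125 at 3 h and one of −0.08 at 6 h. SLC44A1, a choline transporter, had 0.41 and 0.36, and SLC27A4, a fatty acid transport protein, had −0.29 and −0.22. SLC27A6, also of the fatty acid family, had 0.31 and −0.49. The urea carriers, the remaining class, had 2 members, with values of −0.70 and 0.42 at 3 h and −0.19 and 0.24 at 6 h. The 6 members without a class ran from −0.59 to 0.10 and from −0.61 to 0.05. SLC66A2 at −0.19 and −0.61 and SLC67A1 at −0.59 and −0.21 shared the lowest mean of them, and SLC66A3 had the highest mean, with values of 0.10 and 0.

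The 13 carriers with several probes valued on both arrays show how far 1 probe can be trusted. SLC30A5 and SLC13A3 were above 0 in each of their probes at both times, and SLC7A5, SLC6A3, SLC6A6, SLC6A8 and SLC28A1 were below 0 in each. SLC17A5, the sialic acid carrier of lysosomes, had 0.33 and −0.27 on the 3 h array and 0.41 and −0.35 on the 6 h array, so its mean of 0.03 hides 2 probes that disagree. SLC6A15 had 0.44 and −0.06 on the 3 h array and 0.66 and −0.09 on the 6 h array, where a further probe, valued only on that array, had 0.86. SLC4A5 had −0.03 and 0.02 at 3 h but 0.56 and −0.22 at 6 h. SLC4A1, the anion exchanger of red cells, had 0.45 and 0.01 on the 3 h array and −0.17 and −0.07 on the 6 h array.

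**Figure D4:**
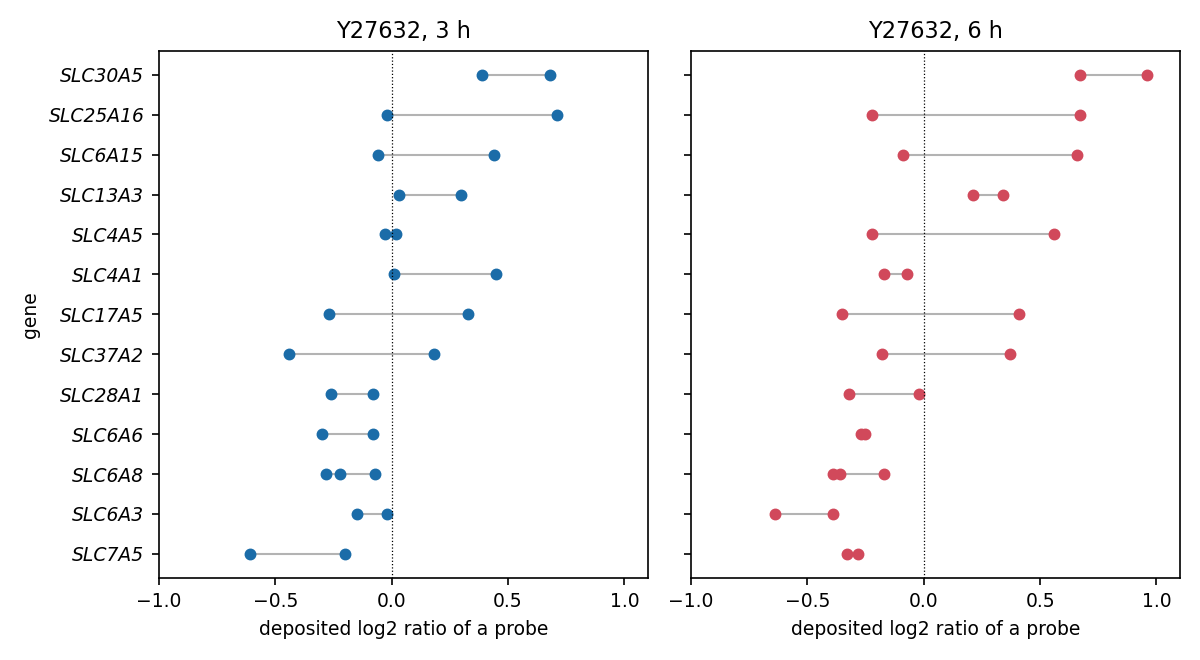
Deposited log2 ratio of each probe (horizontal axis) for the 13 carriers (vertical axis) with 2 or more probes valued on both arrays, at 3 h and 6 h, 1 point per probe with a grey line from the lowest to the highest. Both SLC30A5 probes lie above 0, at 0.39 and 0.68 and then 0.67 and 0.96, whereas the probes of SLC25A16 and SLC17A5 lie far apart or on both sides of 0.

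Subtracting the 3 h ratio from the 6 h ratio gave a median of 0.01 over the carriers and −0.01 over all named genes, and 91 carriers (43.8%) were below 0 against 51.2%. At 1 unit or more 2 carriers were positive (0.962% against 0.774%), SLC15A3 with a difference of 1.65 and SLC17A2, a phosphate and organic anion carrier, with 1.35. Those at −1 or less numbered 0, against 0.43% of named genes. At 1.5-fold 5 were positive (2.4% against 3.05%) and 9 negative (4.33% against 2.7%). Next on the positive side were SLC18A2 at 0.77, SLC7A7, a light subunit for cationic amino acids, at 0.68, SLC2A4 at 0.61 and SLC12A4 at 0.57. The lowest differences were those of SLC22A15 at −0.88, SLC22A7 at −0.85, SLC27A6 at −0.80, SLC9A9 at −0.79, SLC16A11 at −0.77 and SLC5A10 at −0.71. Each of these genes had 1 valued probe. The pooled SD of this difference between probes of one gene was 0.30, and that between all named genes 0.29. With 1 array per time, time and array cannot be told apart.

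Genes around the carriers were read from lists of partners, other transporters and a response that is known to act on amino acid carriers. Of 13 partners and regulators, such as the chaperone BSG of monocarboxylate carriers at −0.20 and −0.17 and the kinase OXSR1 of SLC12 cotransporters at 0.43 and 0.56, 0 were past the size, and the medians were 0.03 and 0.035. The 21 genes of the ATF4 amino acid response, which also raises several SLC transcripts when amino acids are short, had medians of 0.03 and 0.11, with 0 past the size at either time. Below 0 were 47.3% and 47.4% of all named genes, and of these 21 genes 10 at 3 h (47.6%) and 4 at 6 h (19%). Among them PSPH, of serine synthesis, had 0.47 and 0.54, ASNS, the asparagine synthetase, had 0.29 and 0.30, and ATF3 had −0.75 and −0.40. Past the size were 0.525% (positive) and 0.831% (negative) of all named genes at 3 h, and 0.564% and 0.678% at 6 h. A count of 0 in lists this short lies near those shares.

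Other membrane transporters had medians below 0 at 3 h and on both sides of 0 at 6 h. The 31 ATP-driven ion pumps had medians of −0.05 and −0.01 and 0 past the size, with ATP6V1H, a subunit of the proton pump, highest at 0.66 and 0.68 and ATP1B2, a sodium pump subunit, lowest by mean at −0.61 and −0.36. The 27 ABC transporters had −0.08 and 0.055, and ABCG1, a sterol exporter, at −0.48 and −1.01 was the 1 gene past the size. The 41 carriers named outside the SLC pattern, such as SLCO and MFSD genes, had −0.01 and 0.01. UCP1, with 1 probe, had 0.32 at 3 h and −1.15 at 6 h, on opposite sides of 0 and past the size at 6 h. It is named here after its value was seen. ABCG1 and UCP1 were at −1 or less at 6 h, as were 0.678% of all named genes. A count of 0 or 1 in lists this short says little of them. For comparison, 121 of 270 olfactory receptor genes with a probe had a value on both arrays. These 121 genes, of a family little expressed outside the nose, had medians of −0.19 and −0.22. Of them 87 (71.9%) and 88 (72.7%) were below 0, further on the negative side than the carriers. The part that weakly expressed genes have in the carriers' median was not tested, since no intensities were used.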

How the data were processed

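The authors deposited 1 log ratio per probe and array, read here as log2, from amplified, CyDye-coupled RNA per the labels' protocols. The sources used here do not give their background correction, normalization, spot filter, log base or numerator. Of 24267 probes, 20503 had a value on the 3 h array and 20337 on the 6 h array, with a median of 0 on each. Of 13395 probes with 1 gene symbol in the platform annotation, 10822 symbols were current in RefSeq (GRCh38.p14), 2446 older ones were replaced by the current name and 127 ambiguous ones kept. Among the carriers 15 were reached through an update. A gene's value is the mean of its probes.

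Genes are named if among the 10 highest or lowest carriers with one sign on both arrays, past 1 unit, among the 6 highest or lowest differences, the highest or lowest mean of a class of 4 or more, with several probes, or on a fixed list of 24 (21 had both values). From each further list up to 3 per side could be named. Members, lists, motifs and the division by base composition were chosen with earlier results of these data known. Sums and counts were computed in Python 3.11.15 with pandas 2.3.3 and checked on simulated data. Alternatives were the probe summary, centring, symbols, size, missing values, mean for median, and sign.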

Additional observations from a re-analysis of the deposited data

Results flagged for a closer look

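Carriers on opposite sides of 0 at the 2 times, and at least 1 unit apart, were SLC15A3 (−0.64 on the 3 h array and 1.01 on the 6 h array, which differ by 1.65) and SLC17A2 (−0.15 and 1.20, a difference of 1.35). Neither difference was tested, since each time has 1 array, and each gene has 1 probe. SLC6A2, the noradrenaline transporter, had a value of 1 at 3 h and none at 6 h, and therefore is not among the 208 carriers.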

How the results depend on the processing

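The counts of carriers past 1 unit did not change with the probe farthest from 0, the median of probes, genes of 1 valued probe, arrays centred on named genes or symbols current as listed only. With all carriers valued on an array 3 were positive at 3 h in place of 2. Under these settings the medians ran from −0.11 to −0.09 at 3 h and from −0.115 to −0.105 at 6 h. The median difference, 0.01, became 0.02 after centring. With means in place of medians the 3 h value was −0.061, the 6 h value −0.056 and the difference 0.0049. At 1.5-fold the positive and negative counts were 6 and 10 at 3 h, 8 and 11 at 6 h, and 5 and 9 in the difference. At 2 SD of all named genes 3 carriers were positive and 6 negative at 3 h, 4 positive and 6 negative at 6 h, and 5 positive and 9 negative in the difference. If the values are natural logarithms, an alternative added after the data were seen, 2-fold is 0.69 units, with 3 positive and 6 negative at 3 h, 4 and 6 at 6 h, and 3 and 6 in the difference. The shares of all named genes past the 2 SD and natural-logarithm sizes were not computed. The counts of carriers at those sizes therefore cannot be set against the array as a whole. Turning the sign gives medians of 0.09, 0.105 and −0.01, and counts of 0 positive and 2 negative at 3 h, 1 and 2 at 6 h, and 0 and 2 in the difference. No replicate could be left out and no paired analysis was possible because each time has 1 array. Signal over background is unknown, so faint probes could not be set aside.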

Other observations

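Of the 259 carriers with a probe, 51 lacked a value on 1 or both arrays (19.7%, against 15.9% of all named genes). Of these 7 were valued only at 3 h, 8 only at 6 h and 36 on neither. Among the former, SLC5A11 and SLC5A8, sodium-coupled carriers of inositol and of short monocarboxylates, had −0.82 and −0.80, and SLC2A12, a hexose carrier, had 0.71. Those valued only at 6 h ran from −0.36 for SLC24A2 to 0.46 for SLC3A1, the heavy subunit of the renal cystine exchanger. These genes were chosen after their values were seen.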
